A study of Homo sapiens with 45 samples.

Results

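Small interfering RNA (siRNA) brought into a cell can be read as foreign RNA and can then switch on the interferon response. The genes described here are 34 genes of that response, followed in SUDHL6 cells 20 hours after siRNA was delivered. They were taken from a fixed list of symbols, with 1 array probe per gene, the one with the highest mean over 45 arrays. A probe was found for 30 of the 34 genes, out of 19431 genes with a probe on the array. IFI35, IFIT5, STAT2 and BST2 have no probe listed under their symbol and were not analysed here. A gene counted as above background where its log2 value exceeded the median of the array by more than 0.5 on at least 3 arrays. By this rule 13 of the 34 genes were above background and 17 were not, and 8598 genes of the whole array were above background.

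SUDHL6, the line used throughout, comes from a human diffuse large B-cell lymphoma of germinal-centre type. Every sample received siRNA by nucleofection, a delivery by electric pulse, with 80 pmol of an siRNA pool per the labels' protocols. The labels do not say how much of each pool went into a combination of 2. The pools were aimed at HMGA1, FOXM1, TFDP1, ATF5 or NFYB, or were the non-targeting control siNT4. The first set of arrays held the pairs siHMGA1+siFOXM1 (3 arrays), siHMGA1+siTFDP1 (4), siHMGA1+siATF5 (3) and siTFDP1+siATF5 (2), the single pools siHMGA1, siFOXM1, siTFDP1 and siATF5 (3 each), the doubled control siNT4+siNT4 (2) and the single control siNT4 (4). A second set of arrays, whose titles carry the letter A and which is called set A here, held siNFYB+siFOXM1, siNFYB, siFOXM1, siNT4+siNT4 and siNT4 (3 each). The labels do not say what the letter stands for. The controls were nucleofected with siRNA too, and no sample without siRNA or without nucleofection was analysed here. A response shared by all 45 samples would therefore show in the levels and not in the comparisons. All cells were of 1 line, and whether each replicate was its own culture is not stated. The p-values thus rest on the spread among these arrays, some or all of which may be technical.

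Type I interferons bind a receptor made of IFNAR1 and IFNAR2. The kinases JAK1 and TYK2 then activate STAT2, which joins IRF9 in a complex that binds a DNA element called ISRE in the promoters of responding genes. Upstream of this, RIGI, IFIH1 and EIF2AK2 sense RNA in the cytosol and TLR7 senses it in endosomes. Many responding genes block a step of viral growth, and several of them, such as IFIT1, ISG15 and MX1, are commonly read as signs of a response in transfected cells.

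The element can be seen in the promoters of the genes themselves. The core searched was GAAA, any 2 bases and GAAA again, on either strand, in the 250 bases upstream of each start in RefSeq promoters (GRCh38.p14). On the opposite strand it reads TTTC, any 2 bases and TTTC. It was present in 839 of 27305 promoters, 3.07% of all. Of the 26 interferon response genes with a promoter in that table, 15 held it (57.7%). Among them it was in 3 of 9 promoters of genes above background (33.3%) and in 10 of 13 promoters of genes with a probe that was not above background (76.9%). These matches describe the letters in the window and say nothing of binding in these cells. IFI6, IFITM1 and ISG20 are shown as the 3 genes above background whose promoter held the core, and IFI27, IFI44 and IFI44L as examples of those not above background. Each stretch holds the core nearest to the start with up to 30 bases on either side, 5′ to 3′ on the gene's own strand, and capitals mark every match in it.
IFI6 (above background, chr1:27672246-27672315, minus strand): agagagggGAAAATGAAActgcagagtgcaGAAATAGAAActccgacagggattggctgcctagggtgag
IFITM1 (above background, chr11:313970-314039, plus strand): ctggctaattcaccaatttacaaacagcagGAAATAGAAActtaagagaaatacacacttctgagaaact
ISG20 (above background, chr15:88638917-88638986, plus strand): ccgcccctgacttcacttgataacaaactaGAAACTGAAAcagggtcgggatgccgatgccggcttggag
IFI27 (not above background, chr14:94110611-94110680, plus strand): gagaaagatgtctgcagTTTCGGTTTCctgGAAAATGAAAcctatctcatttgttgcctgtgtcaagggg
IFI44 (not above background, chr1:78649741-78649788, plus strand): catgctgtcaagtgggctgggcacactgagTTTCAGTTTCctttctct
IFI44L (not above background, chr1:78620345-78620414, plus strand): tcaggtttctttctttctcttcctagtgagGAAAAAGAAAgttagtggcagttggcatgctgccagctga

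Array medians lay between 6.95 and 6.98 log2 on 44 arrays, and between 24.2% and 30.6% of probes were above background on each. On the remaining array, siTFDP1+siATF5 replicate 3, 44.53% were, and its median correlation with the other arrays was 0.694, against 0.975 or more for each of the 44. Differences therefore come from the 44 arrays. That pair has 1 array in the fit, whose spread is assumed to be that of the other groups. Of the B-cell markers with a probe, 7 of 8 were above background, PAX5 being the exception. None of the 5 T-cell, 5 plasmacytoid dendritic or 5 stromal and epithelial markers with a probe were. The silenced transcripts differed in how far they went down. HMGA1 was 9.73 to 10.16 in siHMGA1 against 11.27 to 11.53 in siNT4, and TFDP1 was 10.18 to 10.35 in siTFDP1 against 11.25 to 11.43. In the arrays labelled siATF5, ATF5 was 10.06 to 10.21 against 10.68 to 10.93 in siNT4, and TFDP1, which that label does not name, was 9.30 to 9.59. FOXM1 was 8.10 to 8.36 in siFOXM1 against 8.46 to 8.56 in siNT4. NFYB was 7.10 to 7.49 in siNFYB of set A against 7.30 to 7.41 in siNT4 of set A, so silencing of NFYB was not seen. The library labelled siHMGA1+siTFDP1 replicate 1 had HMGA1 at 11.27, which goes against its label. In siHMGA1+siATF5, ATF5 was 10.28 to 10.44, overlapping siNT4+siNT4 (10.29 and 10.63), while HMGA1 was 9.83 to 9.94 against 11.25 and 11.28. In siNFYB+siFOXM1 of set A, NFYB was 7.29 to 7.75 against 7.19 to 7.63 in siNT4+siNT4 of set A. FOXM1 was 8.46 to 8.61 there against 8.73 to 8.92. In the other pairs, apart from the library named above, each named target lay below siNT4+siNT4 on every array of the fit. In siTFDP1+siATF5, with 1 array in the fit, ATF5 did so barely, at 10.28 against 10.29 and 10.63. Silencing of ATF5 is therefore not shown in that pair.

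Most of the genes commonly used to recognise an interferon response lay at the level of background in all groups, siRNA-treated controls included. MX1, a GTPase that blocks virus particles, had a lowest, median and highest log2 value of 6.59, 6.82 and 7.04 over 44 arrays. IFIT1, which binds viral RNA caps, had 6.79, 6.90 and 7.27. ISG15, a ubiquitin-like modifier, had 6.83, 7.17 and 7.52 and passed the 0.5 margin on 2 arrays. None of these 3 met the rule of 3 arrays. The other genes not above background had medians between 6.79 and 7.10. They were IFIT2 and IFIT3, partners of IFIT1, IFITM3, which blocks viral entry, OAS3, which makes the signal that activates RNase L, and its relative OASL. The list goes on with RSAD2, an antiviral enzyme, USP18, which removes ISG15 and restrains the receptor, DDX60, a helicase, IFI27, IFI44 and IFI44L. All 3 dedicated RNA sensors with a probe were in this group. RIGI had 6.83, 6.93 and 7.23, IFIH1 had 6.57, 6.79 and 6.96, and TLR7 had 6.73, 6.92 and 7.13. A probe at background puts no lower limit on its transcript.

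**Figure D1:**
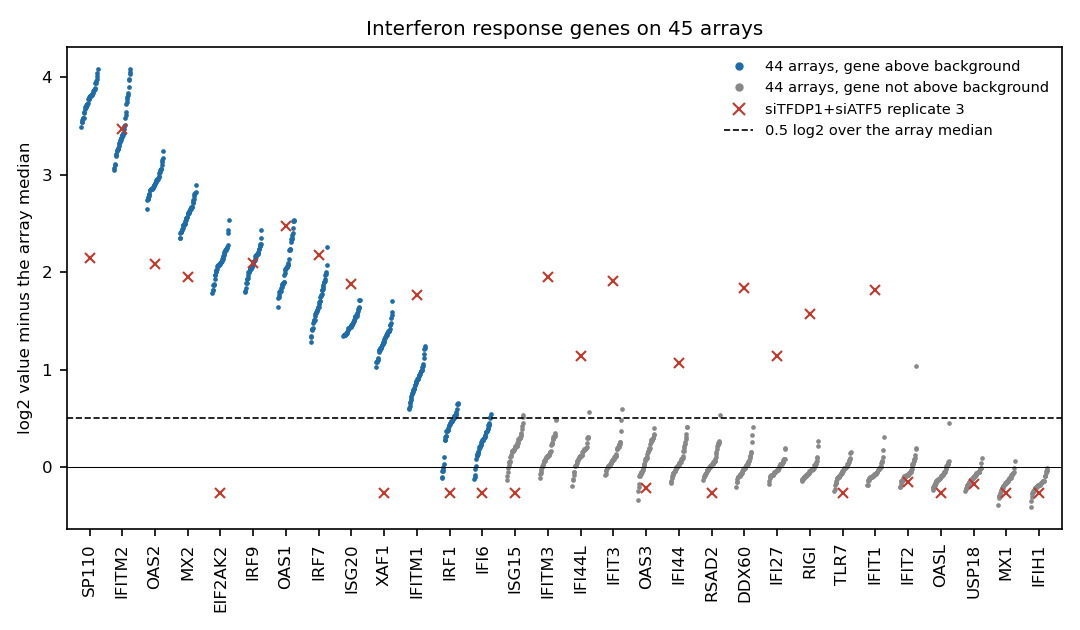
Log2 value minus the median of the array for the 30 genes with a probe, one point per array and genes ordered by their median. The dashed line is the 0.5 log2 margin. Blue points are the 13 genes above background, grey points the 17 that are not, and crosses siTFDP1+siATF5 replicate 3, where DDX60, IFIT1, IFIT3, IFITM3 and RIGI lie far above their other 44 values.

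The 13 genes above background were of several roles. Among the transcription factors, IRF9, a DNA-binding partner of STAT2, had a lowest, median and highest value of 8.77, 9.07 and 9.42. IRF7, which drives interferon genes, had 8.26, 8.64 and 9.21. IRF1, a factor induced by interferon gamma, had 6.85, 7.41 and 7.63 and lay just inside the rule, above the margin on 13 arrays. IRF7 and IRF9 were above the margin on all 44 arrays.

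Among genes acting on RNA, EIF2AK2, the kinase that stops translation when it meets double-stranded RNA, had 8.77, 9.07 and 9.51. OAS1 and OAS2, which make the activator of RNase L, had 8.62, 9.02 and 9.49 in OAS1 and 9.63, 9.88 and 10.21 in OAS2. ISG20, an exonuclease, had 8.32, 8.43 and 8.68. Each of these 4 exceeded the margin on all 44 arrays.

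Among genes that act on membranes or on virus particles, IFITM2, which hinders viral entry, had 10.01, 10.37 and 11.05, the widest range of the 13. IFITM1, its relative at the cell surface, had 7.55, 7.88 and 8.21. MX2, a GTPase that acts on incoming capsids, had 9.32, 9.57 and 9.86. SP110, a nuclear body protein, had 10.46, 10.76 and 11.07, and XAF1, which favours cell death, had 7.99, 8.28 and 8.67. IFI6, an inhibitor of cell death and of viral growth, had 6.84, 7.25 and 7.51. IFI6 was the closest of all to the rule from inside, since it exceeded the margin on 3 arrays, all of them controls of set A (2 of siNT4 and 1 of siNT4+siNT4). Differences of IFI6 from the set A controls are therefore partly set by the rule and get no test here. Just outside were ISG15, IFI44L and IFIT3, with 2 arrays each. The count of genes above background was 21 of 34 with a margin of 0.25 and 11 of 34 with a margin of 1 log2.

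The other parts of the pathway gave a like picture, from lists chosen with earlier results of these data known. The 7 interferon genes listed, IFNA1, IFNA2, IFNB1, IFNG, IFNL1, IFNL2 and IFNL3, were not above background, and their highest values over 44 arrays ran from 6.96 for IFNB1 to 7.47 for IFNL1. The receptors were above it. IFNAR1 had a median of 8.01, IFNAR2 of 9.11 and IFNGR1, the interferon gamma receptor, of 8.55, while IFNLR1 had 10.63 and its partner IL10RB 9.92. Of the kinases, TYK2 had a median of 10.39 and JAK1 of 7.55, and JAK2 was not above background at 6.97. The inhibitors SOCS1 (7.68), SOCS3 (6.96, over the margin on 2 of the 44 arrays and on siTFDP1+siATF5 replicate 3), PIAS1 (9.17) and PTPN6 (7.75) were above it. IFNGR2 has no probe listed and was not analysed here. Of 18 sensors and adaptors with a probe, 12 were above background, among them TLR9, TBK1 and IRF3, and the cytosolic DNA sensors CGAS and STING1 were not. IRF5, 1 of the 12, was over the margin on 2 of the 44 arrays and on siTFDP1+siATF5 replicate 3. Of 36 further interferon-induced genes with a probe, 13 were above it, among them ADAR, IFI16 and SAMD9, and CXCL10, HERC5 and GBP1 were not.

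The 13 genes above background moved little over the series. Their SD over 44 arrays had a median of 0.158 log2 and ran from 0.10 in ISG20 to 0.29 in IFITM2. The median over all 8598 genes above background was 0.158 as well. In 12 of the 13 genes, the arrays of some group spanned a wider range than the group means did. IFITM2 was 11.02, 10.87 and 10.04 in siHMGA1+siFOXM1, a range of 0.98 within 1 group, while its group means spanned 0.69 log2. In the control siNT4 it was 10.75 and 10.71 on 2 arrays, against 10.37 and 10.38 on the other 2. Its 15 arrays of set A lay between 10.01 and 10.48, and 15 of the 29 arrays of the first set in the fit lay above that range, a comparison made after the values were seen.

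OAS1 and IRF7 had the same kind of spread. OAS1 was 9.49 in siHMGA1+siTFDP1 replicate 1 against 8.79 to 9 on the other 3 arrays of that pair. IRF7 was 9.21 on that array against 8.55 to 8.68 on the others. This is the library whose HMGA1 level goes against its label. High OAS1 was not particular to it. OAS1 was also 9.49 in siHMGA1+siFOXM1 replicates 1 and 2, and 9.35 and 9.27 in siNT4 replicates 1 and 2. Over 44 arrays IRF7 and OAS1 lay on the same side of their medians on 36, and IFITM2 and OAS1 on 34, while IRF1 and IFITM2 lay on the same side on 10. These counts describe arrays that share their processing, and they carry no test.

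**Figure D2:**
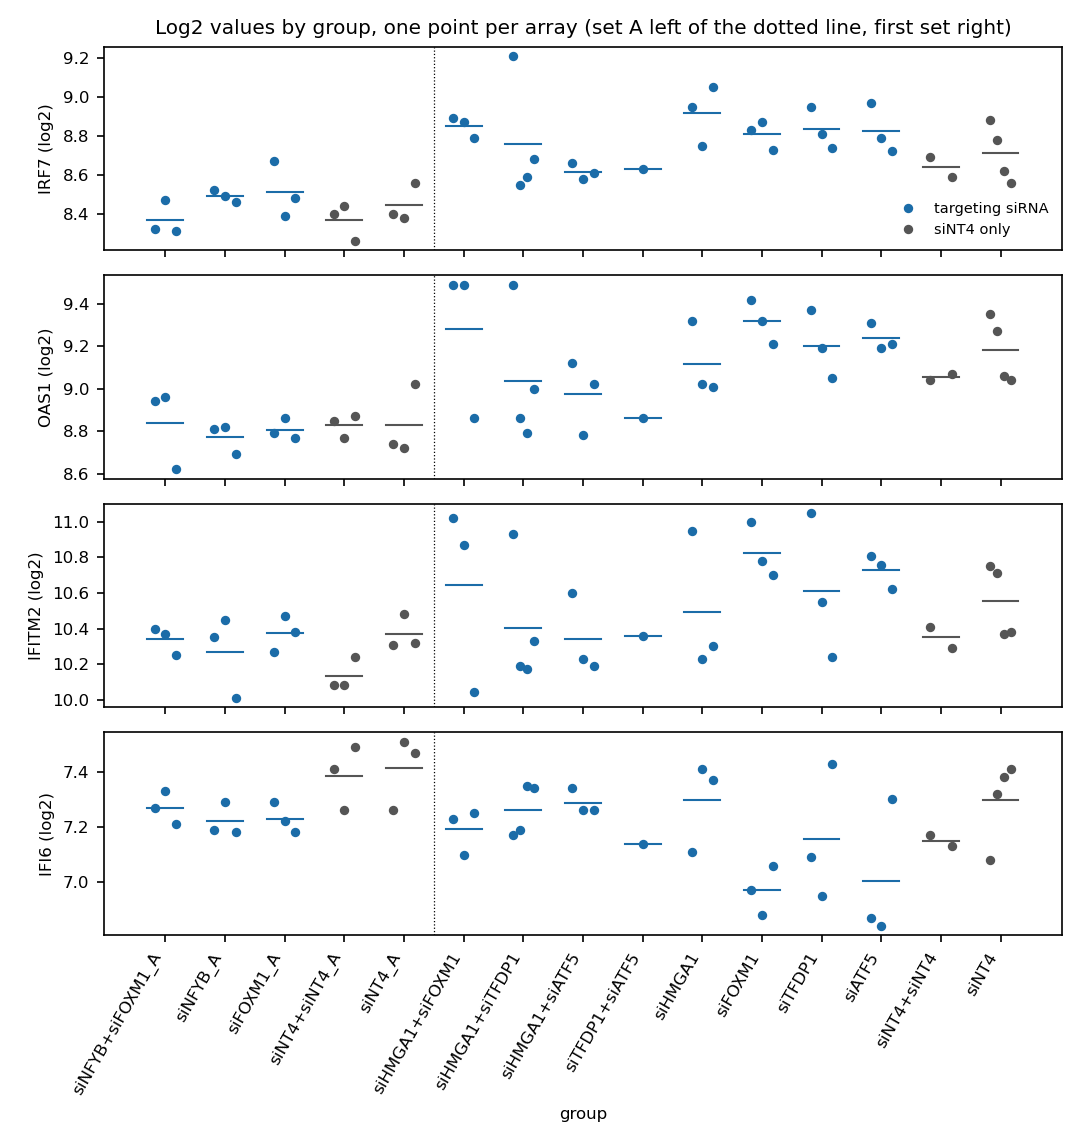
Log2 values of IRF7, OAS1, IFITM2 and IFI6 on 44 arrays by group, one point per array, with a bar at the group mean. Set A is left of the dotted line and the first set right of it, and grey marks arrays with siNT4 alone. IFITM2 spans 0.98 within siHMGA1+siFOXM1, and IRF7 is lower in the set A controls (8.26 to 8.56) than in the first set controls (8.56 to 8.88).

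Each single pool was compared with siNT4 from its own set and each pair with siNT4+siNT4, in 1 limma fit over all 8598 genes. Of the 143 combinations of 13 genes and 11 silencing comparisons, 0 passed an adjusted p of 0.05 (Benjamini-Hochberg, 44 arrays). At an unadjusted p under 0.05 there were 5, or 3.5%, against 6.76% over all genes in the same comparisons. The largest of the 143 differences was 0.33 log2. IFI6 is in these counts, but its combinations with set A controls are not read, since those controls brought it into the 13. Comparisons within a set share control arrays, so their values are given side by side and not as independent results. Over the 30 genes with a probe, with no filter, the median difference ran from -0.03 in siTFDP1 to 0.04 in siHMGA1+siFOXM1, and over all 19431 genes it stayed within 0.01 of 0.

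**Figure D3:**
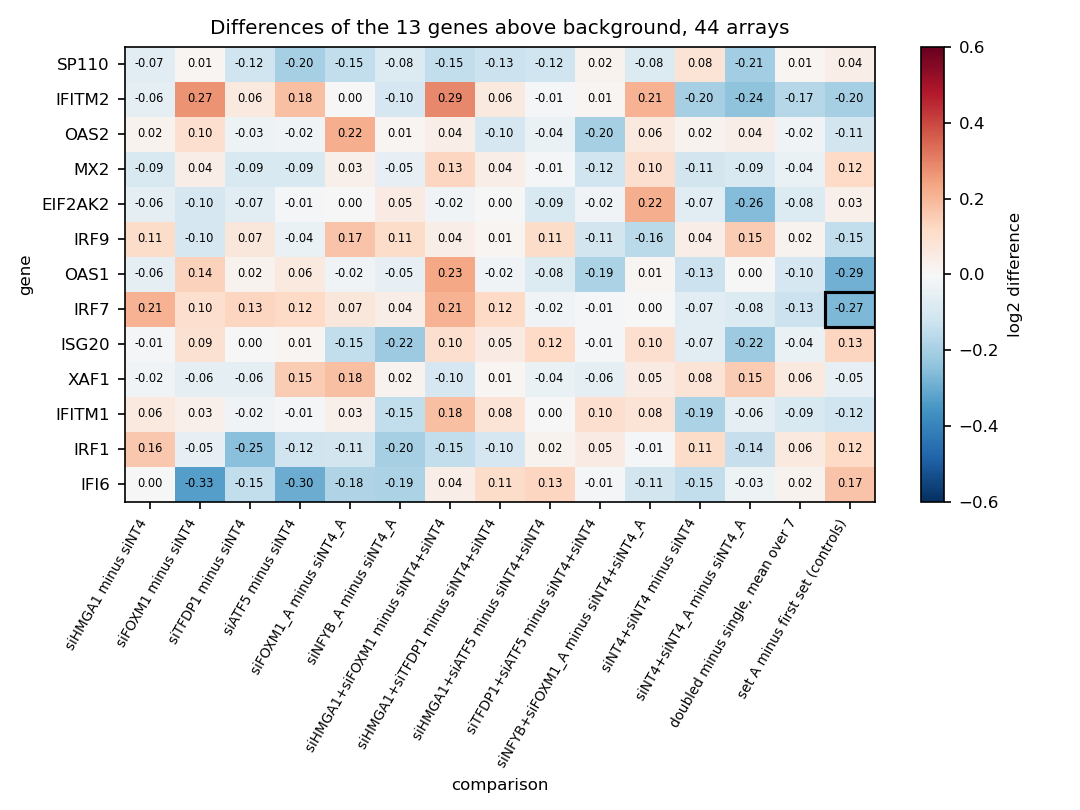
Log2 difference of the 13 genes above background (rows) in 15 comparisons (columns), from the fit of 44 arrays, with the value printed in each cell. Red is higher and blue lower in the group named first. The outlined cell, IRF7 between the controls of set A and of the first set, is the 1 of all cells past an adjusted p of 0.05. IFI6 entered through set A controls, so its cells against those controls are not read as a test.

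In the single pools of the first set, 0 of 13 genes passed in siHMGA1, beside 0.0116% of all genes, and differences from siNT4 ran from -0.09 in MX2 to 0.21 in IRF7. In siTFDP1, 0 of 13 passed beside 0.0814% of all genes, with a range from -0.25 in IRF1 to 0.13 in IRF7. IRF1 was 6.92, 6.95 and 7.28 in siTFDP1, against 6.93, 7.24, 7.47 and 7.58 in siNT4, so the groups overlapped. On the first-set arrays listed from siHMGA1 replicate 1 to siNT4 replicate 2, called early arrays here, IRF1 was 6.85 to 7.38. On the later first-set arrays in the fit it was 7.28 to 7.63. Replicates 1 and 2 of siTFDP1 and of siNT4 are early arrays. This order was looked at after the values were seen, and its part in the differences was not tested. Over both comparisons the 95% intervals of the 13 genes lay between -0.55 and 0.46 log2.

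In siFOXM1, 0 of 13 genes passed, beside 0% of all genes. IFI6 came nearest. It was 6.97, 6.88 and 7.06 in siFOXM1, against 7.08, 7.32, 7.41 and 7.38 in siNT4. The 3 silenced arrays all lay below the 4 control arrays, close to or under the array median. On the early arrays of the first set IFI6 was 6.84 to 7.32, and on the later ones in the fit 7.06 to 7.43. Replicates 1 and 2 of siFOXM1 and of siNT4 are early arrays, and the part of this order was not tested. The difference was -0.33 log2 (95% interval -0.54 to -0.12), with a limma unadjusted p of 0.00279 and an adjusted p of 0.296. In siFOXM1 of set A, IFI6 was 7.29, 7.22 and 7.18, against 7.26, 7.51 and 7.47 in siNT4 of set A, given without a test since these controls brought the gene into the 13. In a test of the difference between both siFOXM1 effects 0 of 13 genes passed, beside 0% of all genes, and IFI6 among the 13 is not read.

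In the arrays labelled siATF5 5.76% of genes were called on 44 arrays, and 0 of the 13 interferon response genes were among them. IFI6 was 6.87, 6.84 and 7.30 in siATF5, against 7.08, 7.32, 7.41 and 7.38 in siNT4. Both low arrays, replicates 1 and 2, lay below all 4 controls, and the third lay among them. Both are early arrays, as are siNT4 replicates 1 and 2, and the part of the listed order was not tested. The difference was -0.30 (95% interval -0.50 to -0.09), with a limma adjusted p of 0.0757, and it turned on single arrays. Without siATF5 replicate 3 it was -0.44 (adjusted p 0.00343), without siNT4 replicate 1 it was -0.37 (adjusted p 0.0386), and without siATF5 replicate 1 or 2 it was -0.23 (0.301) or -0.22 (0.409). SP110 was 10.46, 10.55 and 10.69 in siATF5, against 10.75, 10.78, 10.75 and 10.80 in siNT4. These values do not overlap, and the difference of -0.20 had an unadjusted p of 0.0497 and an adjusted p of 0.21. Between 25.39% and 30.57% of probes were above background in siATF5, against 25.2% to 25.92% in siNT4, and with this share as a covariate the difference was -0.06 in IFI6 (adjusted p 0.997) and -0.05 in SP110 (adjusted p 0.997). The 495 genes behind the 5.76% became 80, 19 or 1728 without siATF5 replicate 1, 2 or 3, and 2 with the covariate. With 45 arrays 0.0465% of genes were called in siATF5, and 0 of 13 interferon response genes.

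In set A, 0 of 13 genes passed in siFOXM1 and in siNFYB, beside 0% of all genes in both. IFI6 is in these counts but is not read, since set A controls brought it into the 13. OAS2 was 9.93, 10.02 and 10.08 in siFOXM1 of set A, against 9.72, 9.82 and 9.84 in its control, with a difference of 0.22 (95% interval 0.01 to 0.43, adjusted p 1). The groups do not overlap. ISG20 was 8.35, 8.55 and 8.32 in siNFYB of set A, against 8.60, 8.68 and 8.60 in its control, with a difference of -0.22 (95% interval -0.40 to -0.04, adjusted p 1). These groups do not overlap either, and both genes had an unadjusted p under 0.05 in limma.

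Among the pairs, 0 of 13 genes passed in any, and 0 had an unadjusted p under 0.05. The share of all genes called was 0.0116% in siHMGA1+siFOXM1, 0.0116% in siHMGA1+siTFDP1, 0.0116% in siHMGA1+siATF5, 0% in siTFDP1+siATF5 and 0.0116% in siNFYB+siFOXM1 of set A. Differences from siNT4+siNT4 ran from -0.15 in IRF1 to 0.29 in IFITM2 for siHMGA1+siFOXM1, where the interval of IFITM2 reached from -0.14 to 0.72. They ran from -0.13 in SP110 to 0.12 in IRF7 for siHMGA1+siTFDP1, and from -0.18 in OAS2 to 0.14 in IFI6 without the library labelled replicate 1. For siHMGA1+siATF5 the range was -0.12 in SP110 to 0.13 in IFI6. For siNFYB+siFOXM1 of set A, where IFI6 is counted but not read, it was -0.16 in IRF9 to 0.22 in EIF2AK2. For siTFDP1+siATF5, with 1 array, it was -0.20 in OAS2 to 0.10 in IFITM1. With 45 arrays 6 of 13 genes were called in that pair, beside 53.3% of all genes, and EIF2AK2, at -1.2 log2, moved furthest of them.

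The amount or number of siRNAs was examined by setting doubled against single siRNA. With the non-targeting pool alone, 0 of 13 genes passed in the first set beside 0% of all genes, and 0 of 13 in set A beside 0.0349%. IFI6 is in the set A count but is not read, since set A controls brought it into the 13. In the first set, IFITM2 was 10.41 and 10.29 in siNT4+siNT4, against 10.75, 10.71, 10.38 and 10.37 in siNT4. The groups overlapped, and the difference was -0.20 (95% interval -0.61 to 0.21), the largest of the 13. The siNT4 values of 10.75 and 10.71 are from early arrays, and both siNT4+siNT4 arrays are later ones. The part of this order in the difference was not tested. In set A, EIF2AK2 was 8.80, 9.04 and 9.05 in siNT4+siNT4, against 9.09, 9.37 and 9.19 in siNT4, with a difference of -0.26 (95% interval -0.50 to -0.02, limma adjusted p 0.563). ISG20 was 8.35, 8.35 and 8.52 there, against 8.60, 8.68 and 8.60, with a difference of -0.22 (95% interval -0.40 to -0.05, adjusted p 0.457). Both genes were lower on every doubled array than on every single array, and neither passed. No upper end of a 95% interval for the 13 genes exceeded 0.44 log2 in either doubling, which was IRF1 in the first set.

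Doubled and single siRNA were also averaged over 7 sets matched by label. These were the 5 pairs, each against the mean of their single pools, and both doublings of siNT4. The labels do not match all target levels. TFDP1 was 9.30 to 9.59 in siATF5 but 11.34 to 11.50 in siHMGA1+siATF5, so the genes silenced differ too. That holds for each average over these sets below. Here 0 of 13 genes passed, beside 8.25% of all genes, and IFI6 among the 13 is not read. IRF7 had -0.13 (95% interval -0.22 to -0.03, limma adjusted p 0.0825) and IFITM2 -0.17 (95% interval -0.32 to -0.01, adjusted p 0.172). Both were lower where siRNA was doubled, and IRF7 passed without siHMGA1+siTFDP1 replicate 1 (-0.15, adjusted p 0.0102) or without siHMGA1 replicate 2 (-0.14, adjusted p 0.0437). The other 11 differences lay between -0.10 in OAS1 and 0.06 in XAF1, and the highest upper end was 0.18, in IRF1. Within the first set, arrays listed early in the series had mostly higher IFITM2, and most of them had single siRNA. From siHMGA1 replicate 1 to siNT4 replicate 2 in listed order, IFITM2 was 10.55 to 11.05 and IRF7 8.78 to 9.21. On the later first-set arrays in the fit they were 10.04 to 10.70 and 8.55 to 9.05. This order was looked at after the values were seen, and its part in the doubled minus single differences was not tested. CD68, a lysosomal protein of myeloid and other cells, differed by 0.28 (adjusted p 0.0207) and the B-cell marker MS4A1 by 0.15 (0.0441) in the same comparison, the 1 of 7 B-cell markers above background that was called. Of the 6 myeloid markers CD14 and CD68 were above background, and LYZ, CSF1R, ITGAM and FCER1G were not. The log2 of the summed level of these 6 was 10.56 to 11.17 on doubled or paired arrays (median 10.94) and 10.44 to 10.98 on single ones (median 10.71). That of the 8 B-cell markers was 15.64 to 16.02 on doubled or paired arrays (median 15.82) and 15.67 to 15.98 on single ones (median 15.89). The part of either sum in the IRF7 and IFITM2 values was not tested.

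**Figure D4:**
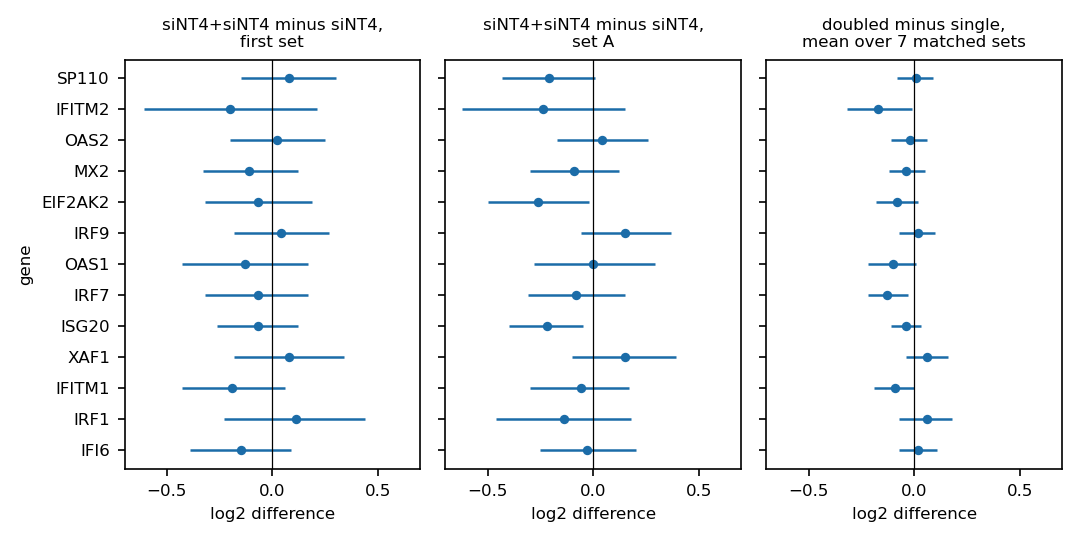
Log2 difference of doubled minus single siRNA for the 13 genes above background, with 95% intervals from limma. The panels show siNT4 in the first set, siNT4 in set A, and the mean over 7 sets matched by label, and no upper end lies above 0.44. IFI6 is drawn but is not read where set A controls enter.

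The control arrays of set A and of the first set were then compared, which asks how far levels differ without any targeting siRNA. IFI6 is in the counts of 13 in this paragraph but is not read, since set A controls brought it in. IRF7 was the 1 gene of 13 that passed, beside 5.48% of all genes. It was 8.40, 8.38 and 8.56 in siNT4 and 8.40, 8.44 and 8.26 in siNT4+siNT4 of set A, against 8.88, 8.78, 8.56 and 8.62 in siNT4 and 8.69 and 8.59 in siNT4+siNT4 of the first set. The ranges meet at 8.56. Of the first-set controls, siNT4 replicates 1 and 2 (8.88 and 8.78) are early arrays and the others (8.56 to 8.69) later ones. The part of this order in the difference was not tested. IRF7 was lower in set A by a difference of -0.27 log2 (95% interval -0.44 to -0.10), with a limma adjusted p of 0.0467 on 44 arrays and 0.186 on 45, where 1.55% of all genes were called. It still passed without siNT4 replicate 3 or 4 or siNT4 replicate 3 of set A, and missed the threshold without each of the other 9 control arrays, with adjusted p from 0.0544 to 0.232 and a difference from -0.29 to -0.24. Both other IRF7 probes had smaller differences, at -0.12 and -0.03. OAS1 had -0.29 (95% interval -0.49 to -0.08, adjusted p 0.0917). ISG20 had 0.13 (95% interval 0.00 to 0.26, adjusted p 0.264). Set and any batch of arrays cannot be told apart here. The doubling effect of siNT4 did not pass a test of its difference between sets for any of the 13 genes, beside 0% of all genes, with 0 at an unadjusted p under 0.05 among them.

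The 17 genes not above background were examined in a fit over all 19431 genes. OASL differed in siATF5 by 0.28 (adjusted p 0.0404), 1 of 17 genes, beside 3.24% of all genes. It was 7.42, 6.98 and 6.88 in siATF5, against 6.82, 6.78, 6.85 and 6.79 in siNT4. The value rests on replicate 1, without which the difference was 0.12 (adjusted p 0.431), and it was 0.20 (adjusted p 0.853) in a fit with each array's share of bright probes (above background) as a covariate. OAS3 differed by 0.18 (adjusted p 0.0177) in doubled against single siRNA, 1 of 17, beside 2.57% of all genes, and by 0.15 (adjusted p 0.153) with that covariate. Leaving out 1 array at a time gave 0.17 to 0.20 for OAS3, past the threshold in each of 43 fits. In siNT4+siNT4 OAS3 was 7.38 and 7.17, against 6.92, 6.87, 7.11 and 7.17 in siNT4. In the other 13 comparisons 0 of 17 were called, beside at most 2.13% of all genes, which was between the controls of both sets. OAS3 lay under the margin on each of the 44 arrays, and both genes were singled out after their values were seen.

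One array carried many of the highest values. siATF5 replicate 2 held the highest value of 7 of the 17 genes over 44 arrays, against 12% of the 10833 genes not above background on the whole array. IFIT2 was 8 there, against 6.88 and 6.83 on the other siATF5 arrays and 6.87 to 6.93 in siNT4. RSAD2 was 7.50 there, against 6.87 and 7.22 on the other siATF5 arrays and 6.94 to 7.01 in siNT4. IFIT3 was 7.56, against 6.90 and 6.94, and 6.89 to 7.10 in siNT4. The rest of the 7 were IFI44 (7.38), DDX60 (7.38), IFIT1 (7.27) and RIGI (7.23). The same array had lower ISG15 (6.87) than all 4 siNT4 arrays (7.03 to 7.23). IFI44L (6.84), IFITM3 (6.85), TLR7 (6.80) and OAS3 (6.72) were also lower there than on all 4. These lower values lay under the median of that array (6.96), where a probe says little of its transcript. Whether the 17 genes moved together on this array was not tested. siATF5 replicate 1 held the highest value of 2 of the 17, against 8.79% of such genes.

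**Figure D5:**
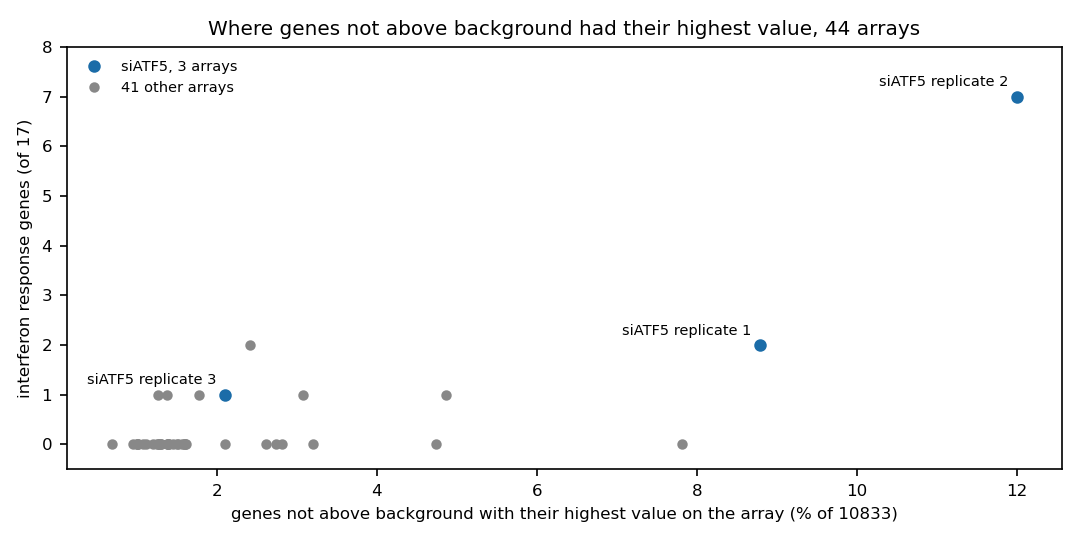
For each of 44 arrays, the share of the 10833 genes not above background that had their highest value on that array (horizontal axis, percent) and the number of the 17 interferon response genes not above background that did (vertical axis). siATF5 replicate 2 lies at 12% and 7 genes, and the other arrays at 2 genes or fewer.

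Few genes of the related lists passed. IFNGR1 was lower in siATF5 by a difference of -0.32 (limma adjusted p 0.0296 on 44 arrays, 0.574 on 45), the 1 of 5 receptor genes called there, beside 5.76% of all genes. In doubled against single siRNA, PTPN6, a phosphatase that restrains receptor signalling, had -0.17 (adjusted p 0.0108), 1 of 6 signalling genes, and SP100, a nuclear body protein, had -0.17 (adjusted p 0.0123), 1 of 13 other induced genes, both beside 8.25% of all genes. IRAK1, a kinase of Toll-like receptor signalling, had -0.30 (adjusted p 0.0181) between the controls of set A and of the first set, 1 of 12 sensors and adaptors, beside 5.48% of all genes. All other genes of these 4 lists missed the threshold in the 15 comparisons with 44 arrays, and none of those called was higher in the group named first.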

How the data were processed

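Biotin-labelled RNA of 45 samples was hybridised to Illumina BeadArrays, per the labels' protocols. The values used are the log2 values the authors deposited for 45013 probes, between 6.28 and 16.28. The sources used here do not give their background correction, normalization or exact transformation. The fits therefore start from these log2 values. A raw table has 90 columns named by chip and position, which no label ties to a sample, so it was not used. Groups come from the sample titles.

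Gene names come from the platform annotation, updated through Entrez identifiers in RefSeq. Of the probes, 28746 had 1 symbol, 8 had several and 16259 had none. The probe with the highest mean stood for its gene. The interferon response genes and the related lists were chosen with earlier results of these data known. All 34 genes, the silenced genes and every measured ligand, receptor and signalling gene were to be named. Of sensors and of other induced genes, up to 3 past the threshold per comparison and direction were to be named. Promoters shown were up to 6 that held the searched core, genes above background first.

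Differences came from linear models in limma 3.58.1 under R 4.3.3 (eBayes moderation, a mean per group, two-sided, Benjamini-Hochberg over 8598 genes above background, threshold 0.05). The fit was tested on simulated data. siTFDP1+siATF5 replicate 3 was left out, a choice made with earlier results known, and the fit of 45 arrays is an alternative. The number of arrays limits precision. Alternatives were the filter on dim probes, the probe rule, quantile normalization, each array's share of bright probes as a covariate, the replicate number as a block, and leaving out each array. Replicate numbers were not used to pair the samples in the main fit. No comparison with 3 shared numbers had all same-number correlations of deviations over 0.1. With 2 shared numbers, they were 0.13 and 0.27 for siHMGA1+siFOXM1 against siNT4+siNT4. For siNT4+siNT4 against siNT4 of the first set they were 0.16 and 0.21.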

Additional observations from a re-analysis of the deposited data

Results flagged for a closer look

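In 2 of 26 combinations of a gene above background and a group of 4 arrays, 1 array lay far from the other 3, where chance gives about 1 in 20. IFITM1 was 8.21 log2 in siNT4 replicate 1, against 7.87 to 7.9 on the other siNT4 arrays. SP110 was 10.85 in siHMGA1+siTFDP1 replicate 2, against 10.67 to 10.68 on the other arrays of that pair.

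On siTFDP1+siATF5 replicate 3, which no comparison with 44 arrays used, 5 genes at background elsewhere lay more than 1 log2 above their highest value on the 44 arrays. DDX60 was 8.73 there, against at most 7.38. IFIT1 was 8.71, against at most 7.27, and IFIT3 was 8.8, against at most 7.56. IFITM3 was 8.84, against at most 7.46, and RIGI was 8.46, against at most 7.23. These 5 are 29.41% of the 17 interferon response genes not above background, and the same held for 23.0% of the 10833 such genes of the whole array. On that array 17171 probes shared the value 6.63, and MX1, ISG15, OASL and RSAD2 were among them.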

How the results depend on the processing

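Counts of the 13 genes called, with IFI6 not read against set A controls, kept within 1.5 times of their value under most alternatives. The exceptions follow. With no filter on dim probes, 1 gene was called in siATF5 (OASL) and 1 in doubled against single siRNA (OAS3). With 45 arrays, 6 were called in siTFDP1+siATF5, namely IFITM1 (0.49), MX2 (-0.37), OAS2 (-0.58), SP110 (-0.89), XAF1 (-0.88) and EIF2AK2 (-1.2), where SP110 had turned its sign. The cause was not tested. Between the controls of both sets, 0 genes were called with 45 arrays, with no filter (IRF7 adjusted p 0.0752) and with the mean of all probes (IRF7 -0.19, adjusted p 0.0763). Genes above background numbered 21 with a margin of 0.25. Leaving out 1 array gave 0 to 1 genes called in siATF5, in doubled against single siRNA and between the controls, and 0 in the other 12 comparisons. With the replicate block the count of the 13 genes called was 0 in each of the 14 comparisons where it could be run. It could not be run between the controls, where set is part of the block. Over all genes, 495 were called in siATF5, and 4 with 45 arrays, 164 with a margin of 1, 312 after quantile normalization, 2 with the share of probes as covariate, 2 without replicates 1 and 2 (chosen after seeing the data). It was 80, 19 or 1728 without siATF5 replicate 1, 2 or 3 and 277 or 184 without siNT4 replicate 2 or 4. In doubled against single siRNA 709 genes were called, and 301 with 45 arrays, 176 with the covariate, and 423, 454 or 1138 without siHMGA1 replicate 1, siNT4+siNT4 replicate 3 or siATF5 replicate 3. Between the controls 471 were called, and 133 with 45 arrays and 232 without siNT4+siNT4 replicate 2. In siTFDP1+siATF5 0 were called, and 4581 with 45 arrays. In siNT4+siNT4 of set A 3 were called, 48 with the replicate block, and 0 to 5 without 1 array. In siTFDP1 7 were called, and 2 to 11 without 1 array, in siFOXM1 0 and 92 without replicate 3, and in siHMGA1+siFOXM1 1 and 65 without replicate 3. Normexp on raw intensities and chip as a block were not run, since no label ties raw columns to samples. Values near background limit what can be read for the 17 dim genes.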
